A study of Cucurbita pepo with 12 samples.

Results

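The genes described here are 102 of the 27868 genes measured in zucchini, chosen because their transcripts were much less abundant in leaves of plants grown with bulk copper oxide (bulk CuO) or copper sulfate (CuSO4) than in leaves of untreated plants and of plants grown with CuO nanoparticles (CuO NPs). FPKM, the unit of the deposited levels, scales fragment numbers by transcript length and library size. A gene was included where the lower of the untreated and CuO NPs leaf values, plus 1, was at least 8 times the higher of the bulk CuO and CuSO4 leaf values, plus 1. The 4 leaf values chose the genes, so their leaf levels are a description without a test.

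Messenger RNA came from root, leaf and pollen of Cucurbita pepo, cultivar Costata Romanesco, a zucchini, with 1 plant per pot of 500 g of soil. Groups were untreated plants, CuO NPs at 100 mg/kg of soil, bulk CuO (CuO of larger particle size) at 100 mg/kg and CuSO4 pentahydrate at 320 mg/kg. Each material supplied about 80 mg of copper per kg, and all plants grew for 60 days. The 12 libraries cover every tissue under every treatment once, so no difference between treatments has a replicate check, and values are given without a p. The design text states biological replicates for each treatment, and the labels do not say if these were combined.

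Copper is an essential micronutrient of plants and is harmful in excess. In leaves it is the cofactor of plastocyanin, which carries electrons in photosynthesis, and of enzymes that remove reactive oxygen. Soluble salts release copper ions at once, while oxide particles dissolve slowly, and small particles have more surface per mass than large ones. The table does not pair its gene IDs with names and 0 of them occur in the RefSeq gene table used here, so neither a name nor a function is given, the labelled tissues could not be checked against marker genes, and few IDs are printed.

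In untreated leaves the 102 genes had a median of 95.1 FPKM, with a range from 7.22 to 1832 FPKM. In CuO NPs leaves the median was 82.1 FPKM, in leaves from bulk CuO it was 2.90 FPKM and in those from CuSO4 3.40 FPKM. No gene can enter with less than 7 FPKM in the lower of the untreated and CuO NPs leaves. The 11544 genes of the table that met this level are used below as a reference set, and their medians in the 4 leaf libraries were 19.8, 19.3, 18.2 and 17.9 FPKM in the same order. The 102 genes were 0.366% of the table and 0.884% of this reference set. Together they made up 2.80% of the summed FPKM of the untreated leaf library and 2.63% under CuO NPs, against 0.120% under bulk CuO and 0.155% under CuSO4. Bulk tissue was sequenced, so fewer cells of a type and less RNA per cell cannot be told apart.

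**Figure D1:**
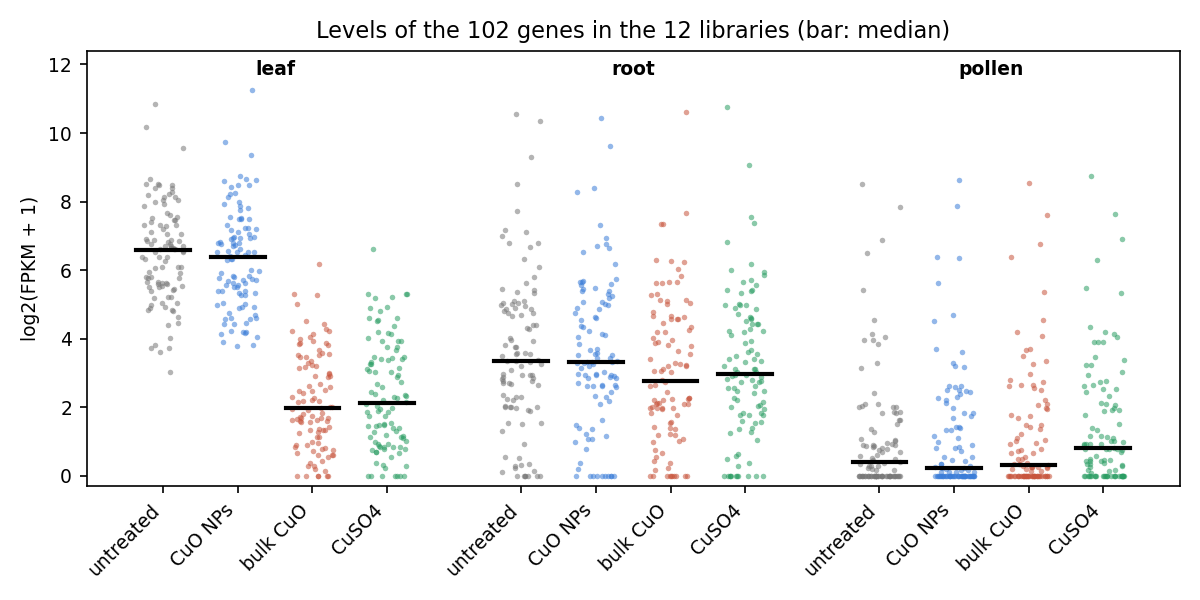
Level of each of the 102 genes, as log2(FPKM + 1) on the vertical axis, in the 12 libraries, grouped by tissue and coloured by treatment. Each point is a gene and each black bar the median of a library. The 4 leaf libraries fall into a high and a low pair by the choice of the genes, root medians lie between them, and pollen medians lie below 1 FPKM.

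The ratio that chose the genes had a median of 11.4 and reached 55.5. It was at least 16 for 24 genes and at least 32 for 4, while 39 genes lay under 10. Against untreated leaf, the median difference on the log2(FPKM + 1) scale was -4.12 under bulk CuO, a 17.4-fold difference in FPKM + 1, and -3.93 under CuSO4, a 15.2-fold difference. The 3 genes just inside the threshold had ratios of 8.05, 8.06 and 8.08, and the 3 just outside had 7.94, 7.97 and 7.98. There were 24 genes with ratios from 8 to 9 and 34 from 7 to 8, so no gap in the values sets the group apart.

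Cp4.1LG12g05650 was the most abundant of the genes in leaf. It stood at 1832 FPKM in untreated leaf, 2451 FPKM under CuO NPs, 71.9 FPKM with bulk CuO and 97.8 FPKM with CuSO4. It alone supplied 11.8% of the summed leaf FPKM of the 102 genes in the untreated library, and the 10 most abundant genes supplied 40.4%. Cp4.1LG08g03840 came next by the lower of its untreated and CuO NPs values. It had 1145 FPKM in untreated leaf, 858 FPKM under CuO NPs, 10.1 FPKM with bulk CuO and 27.0 FPKM with CuSO4. In root it did not exceed 9.61 FPKM, whereas Cp4.1LG12g05650 was abundant there.

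The largest ratios were those of Cp4.1LG10g00950 and Cp4.1LG10g07120. Cp4.1LG10g00950 stood at 119 FPKM in untreated leaf and 131 FPKM under CuO NPs, was listed at 0 under bulk CuO, and had 1.15 FPKM under CuSO4. Cp4.1LG10g07120 had 184 FPKM in untreated leaf, 102.8 FPKM under CuO NPs, 1.42 FPKM with bulk CuO and 0.602 FPKM with CuSO4. Both were near the floor of the table in both low leaves, and they differed outside the leaf. Cp4.1LG10g07120 did not exceed 0.455 FPKM in any root library or 0.805 FPKM in any pollen library, and Cp4.1LG10g00950 ranged from 40.9 to 212 FPKM in root. Under bulk CuO 6 of the 102 genes were listed at 0 in leaf, under CuSO4 7, and 5 were at 0 in both. An exact 0 can be a failed estimate, so no fold against a leaf value of 0 is given for a single gene. The ratios and median differences above, taken on FPKM + 1, include these genes.

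The choice asked for low values under both bulk CuO and CuSO4 without fixing which was lower. Of the 102 genes, 80 (78.4%) differed by less than 1 on the log2(FPKM + 1) scale between these materials, the size counted from here on unless another is named. This was a smaller share than the 89.3% of all leaf genes and the 90.7% of the reference set within that size. By the choice both values were low in the 102 genes, with medians of 2.90 and 3.40 FPKM. The reference set had 18.2 and 17.9 FPKM, so the shares given here compare genes at unlike levels. Under CuSO4 16 genes were higher than under bulk CuO by at least 1, where 3.84% of all 20833 genes averaging 1 FPKM or more in leaf were. Another 6 were lower, where 6.88% of leaf genes were. By any amount, bulk CuO had the lower leaf value for 57 genes and CuSO4 for 40, where 58.2% of leaf genes were lower under CuSO4, and 5 were equal at 0. The median difference, CuSO4 minus bulk CuO, was 0.10 over the 102 genes, -0.10 over all leaf genes and -0.04 over the reference set. In the reference set 4.80% were higher and 4.52% lower under CuSO4 by at least 1, and 53.3% were lower by any amount. With 5 in place of 1 added before the log, 4 of the 102 genes were higher and 2 lower by at least 1.

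**Figure D2:**
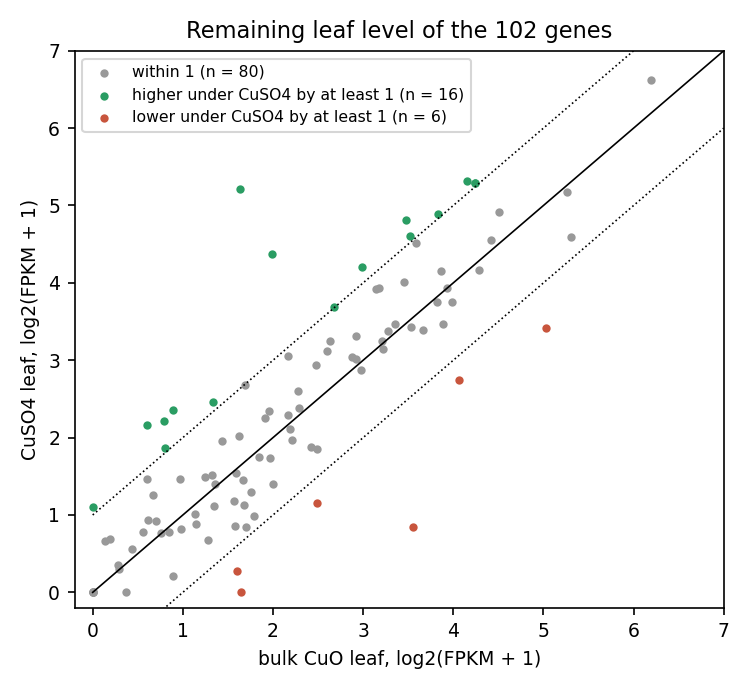
Leaf level of each of the 102 genes under bulk CuO (horizontal axis) and CuSO4 (vertical axis), both as log2(FPKM + 1). Each point is a gene, the solid line marks equal values and dotted lines a difference of 1. 16 genes lie above the upper dotted line and 6 below the lower one.

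Cp4.1LG03g10370 was furthest above the line of equal values. It stood at 757 FPKM in untreated leaf, 654 FPKM under CuO NPs, 2.10 FPKM with bulk CuO and 36.1 FPKM with CuSO4, a log2 difference of 3.58 between the last pair. Cp4.1LG05g04830 followed, with 2.98 FPKM with bulk CuO and 19.7 FPKM with CuSO4, against 263 FPKM in untreated leaf and 181 FPKM under CuO NPs. Both kept more transcript under the sulfate, yet stayed far below the untreated library. In the opposite direction, Cp4.1LG01g05010 had 10.8 FPKM with bulk CuO and 0.80 FPKM with CuSO4, against 174 FPKM in untreated leaf and 178 FPKM under CuO NPs. Cp4.1LG12g04660 had 31.5 FPKM with bulk CuO and 9.69 FPKM with CuSO4, against 289 FPKM in untreated leaf and 302 FPKM under CuO NPs.

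Untreated and CuO NPs leaves were both high by choice, and the choice did not fix their order. The 102 genes were on the whole slightly lower under CuO NPs, with a median log2 difference of -0.10 against -0.01 over all leaf genes. By any amount 66 of 102 were lower, beside 51.0% of all leaf genes. At least 1 lower were 7 genes, where 1.64% of leaf genes were, and 1 was at least 1 higher, where 0.773% of leaf genes were. Cp4.1LG03g07690 had the largest difference, with 102 FPKM in untreated leaf and 23.1 FPKM under CuO NPs, a log2 difference of -2.10, and stood at 0.535 FPKM with bulk CuO and 0.914 FPKM with CuSO4. Cp4.1LG13g06400 went from 310 FPKM in untreated leaf to 124 FPKM under CuO NPs, with 5.18 FPKM with bulk CuO and 8.52 FPKM with CuSO4. These 2 genes therefore took an intermediate level under the nanoparticles, as the choice requires of any chosen gene lower there than in untreated leaf. Cp4.1LG14g06110 was the gene at least 1 higher, with 7.22 FPKM in untreated leaf and 17.0 FPKM under CuO NPs, and it was listed at 0 in the other 10 libraries. Cp4.1LG05g14220 had 156 FPKM in untreated leaf and 253 FPKM under CuO NPs, a log2 difference of 0.70.

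Root and pollen libraries played no part in choosing the genes. Most of the genes were also detected in root: 88 of 102 (86.3%) averaged 1 FPKM or more over the 4 root libraries, beside 95.6% of the reference set and 75.3% of the whole table. Their median of root means was 8.46 FPKM, against 16.8 FPKM in the reference set. In pollen 42 of 102 (41.2%) reached this level, beside 57.5% of the reference set and 40.1% of the table, and the median was 0.413 FPKM. Both tissues reached it for 38 genes, root without pollen for 50, pollen without root for 4 and neither for 10. Listed at 0 in all 4 root libraries were 5 genes, in all 4 pollen libraries 21, and in all 8 there were 4.

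The order of leaf and root levels differed between treatments. In untreated plants 92 of the 102 genes were higher in leaf than in root, with a median log2 difference of 2.87, and under CuO NPs also 92, with 2.64. Under bulk CuO 32 were higher in leaf and 67 lower, with a median of -0.61, and under CuSO4 33 were higher and 65 lower, with a median of -0.75. In the reference set the share of genes higher in leaf stayed between 50.1% under CuSO4 and 54.9% under bulk CuO. The leaf side of this comparison comes from the values that chose the genes, and the root side does not. In 55 genes all 4 root values exceeded both low leaf values, and in 83 all 4 root values lay below both high leaf values.

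In root, the question was whether the genes low in bulk CuO and CuSO4 leaves were also lower in roots of the same treatments, which share no library with the leaf values. Many were lower there, by less than in leaf. Under bulk CuO 34 of the 88 genes averaging 1 FPKM or more were lower than in untreated root by at least 1, where 5.74% of all 20985 such root genes were, and 9 were higher, where 6.66% were. Under CuSO4 20 were lower, where 2.63% of root genes were, and 3 were higher, where 2.53% were. Under CuO NPs 2 were lower, where 1.42% were, and 6 higher, where 2.29% were. Their median log2 difference from untreated root was -0.72 under bulk CuO, -0.30 under CuSO4 and -0.05 under CuO NPs, against -0.08, -0.07 and 0.06 over all root genes. Past 2.3, the size named in the series design text, 6 genes were lower under bulk CuO, where 0.362% of root genes were, and 4 under CuSO4, where 0.343% were. Past it, 1 was higher under bulk CuO and 0 under CuSO4, where 0.834% and 0.157% of root genes were. A gene could pass the level of 1 FPKM through a library in which it was high, so the level was also asked of the 2 root libraries not compared, a choice made after the data were seen. By that filter 34 of 86 genes were lower under bulk CuO, where 5.72% of root genes were, and 20 of 87 under CuSO4, where 2.59% were. By any amount 61 were lower under bulk CuO and 63 under CuSO4, where 56.1% and 57.6% of root genes were. Within root, 10 of the 88 were lower and 18 higher by at least 1 under CuSO4 than under bulk CuO, where 6.68% and 5.77% of root genes were.

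**Figure D3:**
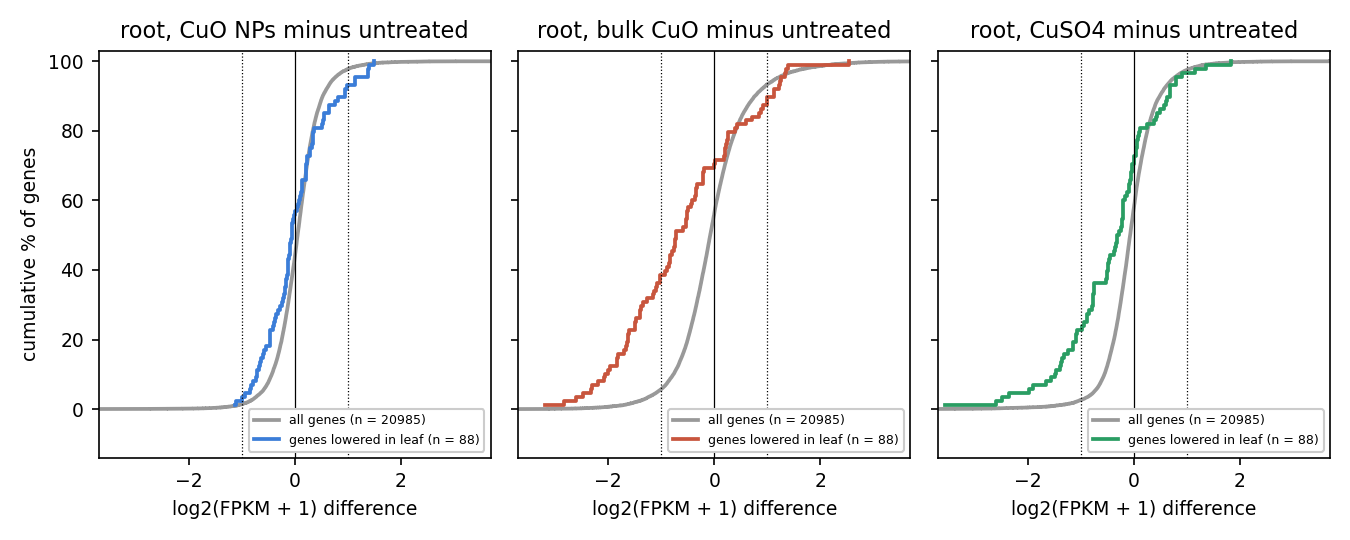
Difference from the untreated root library in log2(FPKM + 1) (horizontal axes) for CuO NPs, bulk CuO and CuSO4, as the cumulative percentage of genes at or below each difference (vertical axis). Coloured lines show the 88 genes lowered in leaf that averaged 1 FPKM or more in root, grey lines all 20985 root genes at that level, and dotted lines differences of -1 and 1. The coloured line lies left of the grey one over the lower part of the bulk CuO and CuSO4 panels, where 34 and 20 genes lie at or below -1.

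All 3 root comparisons share the untreated library, so they were repeated against the CuO NPs root library, a comparison chosen after the data were seen. Against it 36 of the 88 genes were lower under bulk CuO by at least 1, where 9.25% of all root genes were, and 26 under CuSO4, where 3.62% were. Higher than under CuO NPs were 12 and 3 genes, where 8.37% and 3.05% of root genes were. Among the 67 genes averaging 5 FPKM or more in root, 29 were lower than in untreated root under bulk CuO, where 6.13% of root genes at that level were, and 18 under CuSO4, where 2.23% were. The excess of lower genes was thus also present away from the lowest values and with another library for comparison.

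The order that defined the genes in leaf put untreated and CuO NPs both above bulk CuO and CuSO4. In root 39 of the 88 genes (44.3%) had it, beside 29.8% of root genes and 33.2% of reference set genes kept in root. With a gap of at least 1 between the pairs it was found for 10, where 0.605% of root genes had it. After a median shift or quantile normalization 35 of the 88 had the order by any gap, and the share of root genes was not counted. The opposite order was found for 8 genes, where 13.3% had it, and for 0 with a gap of at least 1, where 0.40% had it; with 1 library per group neither count has a test. Cp4.1LG03g05150 had the largest gap. In root it stood at 142 FPKM untreated, 102.98 FPKM under CuO NPs, 19.1 FPKM with bulk CuO and 11.1 FPKM with CuSO4. Its leaf values ran in the same order of pairs, with 96.9 FPKM untreated, 84.5 FPKM under CuO NPs, 8.30 FPKM with bulk CuO and 7.87 FPKM with CuSO4. Cp4.1LG10g00940 followed, with 25.6 FPKM in untreated root, 19.1 FPKM under CuO NPs, 3.38 FPKM with bulk CuO and 3.40 FPKM with CuSO4. The gene with the next ID, Cp4.1LG10g00950, had 212 FPKM in untreated root, 122 FPKM under CuO NPs, 49.4 FPKM with bulk CuO and 40.9 FPKM with CuSO4. In all 3 genes the high and low pairs of root libraries stayed apart.

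Cp4.1LG12g05650, the most abundant gene in leaf, also had this order in root. It stood at 1492 FPKM in untreated root, 1399 FPKM under CuO NPs, 163 FPKM with bulk CuO and 537 FPKM with CuSO4. It was the gene with the lowest value under bulk CuO relative to untreated root among the 88, at a log2 difference of -3.19. The opposite order was widest in Cp4.1LG01g22230, with 8.99 FPKM in untreated root, 6.71 FPKM under CuO NPs, 22.6 FPKM with bulk CuO and 17.8 FPKM with CuSO4. Cp4.1LG15g02850 had 3.89 FPKM in untreated root, 5.33 FPKM under CuO NPs, 10.8 FPKM with bulk CuO and 11.6 FPKM with CuSO4. These genes were lower in leaf and higher in root under the same materials.

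Cp4.1LG01g20670 had the highest root level of the 102 genes. Its root values had the opposite order of pairs to its leaf values, with a log2 gap of 0.26. In root it had 1307 FPKM untreated, 786 FPKM under CuO NPs, 1561 FPKM with bulk CuO and 1739 FPKM with CuSO4. In leaf it had 202 FPKM untreated, 235 FPKM under CuO NPs, 10.5 FPKM with bulk CuO and 23.3 FPKM with CuSO4. Cp4.1LG12g05650 was next in root, with a mean of 898 FPKM over the 4 root libraries.

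Which of bulk CuO and CuSO4 was lower in leaf was set beside the same difference in root. Over the 88 genes the bulk CuO minus CuSO4 differences of leaf and root had a Pearson r of -0.21 and a Spearman rho of -0.08, against -0.10 and -0.05 over the 19053 genes kept in both tissues. For untreated minus CuO NPs, r was 0.22 and rho 0.24 over the 88 genes, against 0.14 and 0.12 over the 19053. In both cases the relation was weak. These are correlations across genes, which share their libraries and are not independent, and no p is given.

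In pollen, the leaf pattern was not seen as a shift to lower values. Of the 42 genes averaging 1 FPKM or more in pollen, 2 were lower than in untreated pollen by at least 1 under bulk CuO, where 1.15% of all 11185 pollen genes were, and 8 were higher, where 7.38% were. Under CuSO4 0 were lower, where 0.635% of pollen genes were, and 14 were higher, where 8.57% were. Under CuO NPs 2 were lower, where 0.438% were, and 6 higher, where 2.59% were. The 2 lower genes were the same under bulk CuO and CuO NPs: Cp4.1LG00g08910 and Cp4.1LG00g09890, which had equal values in all 12 libraries. Each stood at 14.5 FPKM in untreated pollen and 14.1 FPKM under CuSO4 and was listed at 0 in the other 2 pollen libraries. Cp4.1LG19g02000, with leaf values close to theirs, was detected in those libraries, at 11.3 FPKM under CuO NPs and 10.4 FPKM under bulk CuO. With the level asked of the 2 pollen libraries not compared, 11 of 37 genes were higher under CuSO4, where 8.39% of pollen genes were, so 3 of the 14 counted above do not enter without their CuSO4 or untreated value. Median log2 differences over the 42 genes were 0.14 under CuO NPs, 0.15 under bulk CuO and 0.23 under CuSO4, against 0.12, 0.07 and 0.07 over all pollen genes. After a shift to a common median they were -0.02, -0.01 and 0.04, so the sign under CuO NPs and bulk CuO rests on the scaling. Library medians in pollen lay 0.16 (CuO NPs), 0.16 (bulk CuO) and 0.19 (CuSO4) above untreated on the log2 scale, and after a shift to a common median 12 of the 42 were at least 1 higher under CuSO4, where 6.84% of pollen genes were. The leaf order was found for 8 of the 42, where 23.3% of pollen genes had it, and the opposite order for 17, where 27.7% had it. With a gap of at least 1 the opposite order held for 3 genes, where 3.08% had it.

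Cp4.1LG06g06180 and Cp4.1LG12g06560 had the widest opposite order in pollen, both at low levels. Cp4.1LG06g06180 had 0.704 FPKM in untreated pollen, 1.62 FPKM under CuO NPs, 6.83 FPKM with bulk CuO and 7.19 FPKM with CuSO4, while its leaf values were 263, 180.5, 14.3 and 14.2 FPKM in the same order. Cp4.1LG12g06560 had 1.04 FPKM in untreated pollen, 2.35 FPKM under CuO NPs, 8.57 FPKM with bulk CuO and 8.46 FPKM with CuSO4, while its leaf values were 405, 386, 37.3 and 35.1 FPKM. In both genes pollen and leaf ran in opposite directions. Among the 8 with the leaf order, Cp4.1LG11g08810 had the widest gap, with 22.2 FPKM in untreated pollen, 24.8 FPKM under CuO NPs, 15.8 FPKM with bulk CuO and 15.5 FPKM with CuSO4. In leaf it stood at 27.1 FPKM untreated and 24.9 FPKM under CuO NPs and was listed at 0 under bulk CuO and CuSO4, and in root it did not exceed 0.49 FPKM.

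Root and pollen were compared with limma over their 8 libraries, with treatment as a block and the 4 libraries of a tissue as its replicates. Of the 102 genes, 87 averaged 1 FPKM or more over these libraries. A gene could pass through the tissue where it was high, so the counts describe these 87 and not all 102. Higher in root were 67 of the 87 and higher in pollen 9, at a Benjamini-Hochberg adjusted p under 0.05 and a difference of at least 1, where 70.7% and 12.8% of all 20726 genes tested were. Under this filter the shares lay near those of all genes, whose median log2 difference, root minus pollen, was 2.08, against 2.65 over the 87. Without the filter 69 of the 102 were higher in root and 9 in pollen, where 55.7% and 9.62% of all genes were. The reference set was not counted without the filter. Among the 10940 genes of the reference set in the fit, 77.3% were higher in root and 6.44% in pollen, with a median of 2.53. After all 8 libraries were shifted to a common median, 29 of the 87 (33.3%) were higher in root and 20 (23.0%) in pollen, where 23.1% and 32.4% of all genes were. The balance of directions thus rests on the scaling, and under this scaling the 87 leaned to root and all genes to pollen, a difference that was not tested. The reference set was not counted under this scaling, so the lean cannot be called particular to the 87.

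**Figure D4:**
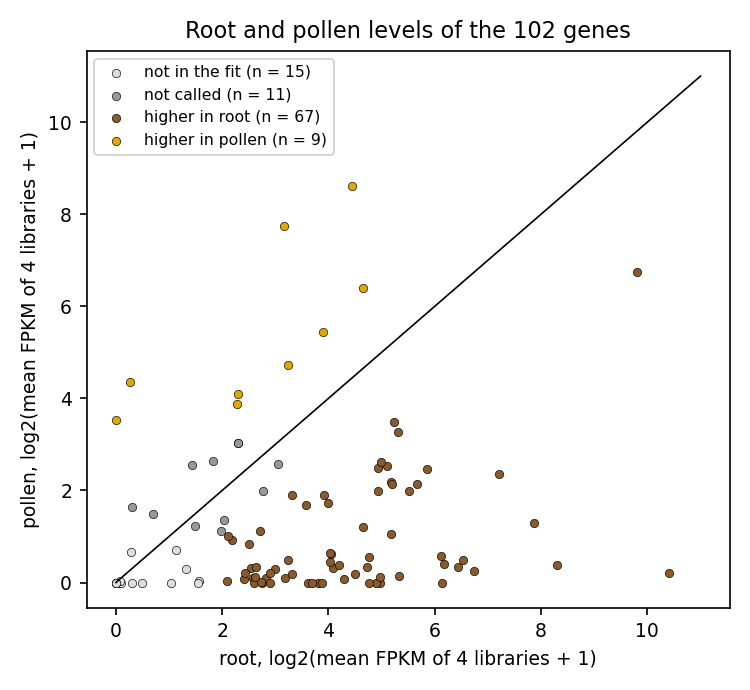
Mean level over the 4 root libraries (horizontal axis) and the 4 pollen libraries (vertical axis) of each of the 102 genes, as log2(mean FPKM + 1). Colours give the limma result as deposited values are scaled: 67 genes were higher in root, 9 higher in pollen, 11 were not called and 15 were not in the fit. The line marks equal levels.

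Cp4.1LG01g20670 had the largest difference in favour of root, at 1349 ± 415 FPKM in root and 0.146 ± 0.111 FPKM in pollen (SD, n = 4 libraries), a log2 difference of 10.15 (SE 0.25, limma adjusted p = 6.97e-07). It was followed by Cp4.1LG01g06900, at 313 ± 224 FPKM in root, with a log2 difference of 7.72 (SE 0.56, limma adjusted p = 2.38e-05). Its root libraries spread from 111 FPKM under CuSO4 to 625 FPKM untreated, and it was listed at 0 in 3 of the 4 pollen libraries. In favour of pollen, Cp4.1LG15g02850 stood at 214 ± 18.6 FPKM in pollen and 7.90 ± 3.86 FPKM in root (SD, n = 4 libraries), a log2 difference of -4.70 (SE 0.30, limma adjusted p = 1.45e-05). Cp4.1LG04g08510 stood at 388 ± 28.5 FPKM in pollen and 20.8 ± 11.1 FPKM in root (SD, n = 4 libraries), a log2 difference of -4.34 (SE 0.34, limma adjusted p = 3.22e-05). It was the gene with the highest pollen level of the 102, and all 4 of its pollen libraries lay between 361 and 424 FPKM. In leaf Cp4.1LG04g08510 had 169 FPKM untreated, 177 FPKM under CuO NPs, 18.6 FPKM with bulk CuO and 17.0 FPKM with CuSO4, so its low leaf level had no counterpart in pollen. All 4 genes were called in the same direction under every scaling and every left-out treatment tried.

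The IDs of the genes carried all 21 LG prefixes of the table, with 1 to 9 genes each. The prefix LG00 was borne by 6 genes (5.88%), against 3.69% of the reference set and 5.87% of the whole table. The prefix LG09 had 9 genes, 1.90% of its reference genes, and LG17 had 1, 0.196%. The LG00 genes with equal values named above count as 2 of the 102, and how reads were split between them is not known. Some other genes had similar but not equal values, such as Cp4.1LG12g05240 and Cp4.1LG12g11930, and each of these also counts. Among the 102, 4 genes had another of the 102 within 20 of their ID number: Cp4.1LG10g00940 with Cp4.1LG10g00950, and Cp4.1LG14g00360 with Cp4.1LG14g00370. These pairs were singled out after their values were seen.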

How the data were processed

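Strand-specific mRNA libraries were sequenced as single reads of 75 bp, per the labels' protocols. STAR and a reference transcriptome of a cucurbit database are named in the series design text, and cutadapt and StringTie in the submitters' processing notes. Their versions were not stated. FPKM values normalized by the authors were deposited for 12 libraries without read counts, and no count model was applied. Absolute depth is unknown. The spacing of low values gave depths of 0.915 to 1.15 relative to the untreated library of the same tissue.

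The 102 genes, comparisons and lists were chosen with earlier results of these data known. Differences are of log2(FPKM + 1), which understates changes of genes at low levels. A gene entered a comparison if it averaged 1 FPKM or more over the tissue's libraries. With 1 library per group, differences are described by size, beside the percentage of all genes past the same size. Root and pollen were compared with limma 3.58.1 (R 4.3.3), with empirical Bayes moderation and a trend. Its p-values rest on the spread left among libraries once treatment differences shared by root and pollen were removed by the block. The SDs given beside them still include those treatment differences. Other steps used Python 3.11.15 with pandas 2.3.3. The steps were tested on simulated data.

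Genes were named by rank within each comparison, at most 2 per direction, and ranked differences required 5 FPKM or more in the larger value. A gene could be named in several comparisons. Genes with neighbouring IDs or with equal or similar values were named after their values were seen. Other values added before the log, other scalings and filters, left-out libraries and a fit without the block were tried.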

Additional observations from a re-analysis of the deposited data

Results flagged for a closer look

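The largest or smallest of the 4 libraries of a tissue stood apart from the other 3 in 6 of 40 groups of 4. The groups were the root or pollen values of the genes named by rank and of the summed level of the 102 genes. A rate of about 1 in 20, or 2 of 40, would hold for normally distributed values, and the 4 libraries differ in treatment. That rate does not hold where the other libraries of a tissue are listed at 0, since any single value above 0 is then marked. Some of the genes were also named for their root or pollen values, so the 6 cannot be read as more than chance gives. In root, Cp4.1LG01g05010 was lowest under bulk CuO, at 11.4 FPKM against 30.5 to 31.7 FPKM in the other libraries. Cp4.1LG03g07690 was highest under bulk CuO in root, at 77.3 FPKM against 11.9 to 20.5 FPKM. Cp4.1LG13g06400 was detected in root under CuO NPs, at 0.962 FPKM, and listed at 0 in the other root libraries. In pollen, the CuSO4 library was highest for Cp4.1LG10g00950, at 0.725 FPKM, and for Cp4.1LG01g06900, at 1.24 FPKM, both listed at 0 in the other pollen libraries. It was also highest for the summed level of the 102 genes, at 1154 FPKM against 990 to 1016 FPKM.

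Some named genes ran in opposite orders in leaf and in another tissue, a difference that was not tested. Bulk CuO and CuSO4 lay above untreated and CuO NPs in root by a log2 gap of 0.92 for Cp4.1LG01g22230 and 0.90 for Cp4.1LG15g02850. In pollen the gap was 1.58 for Cp4.1LG06g06180 and 1.498 for Cp4.1LG12g06560.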

How the results depend on the processing

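The number of genes chosen moved with the rule's settings, to 253 with 0.1 and 38 with 5 added before the ratio, and to 405 at a ratio of 4 and 24 at 16. A median shift and quantile normalization gave 118 and 107 genes, among them 102 and 97 of the 102. No named gene changed direction. The median difference in pollen changed sign under a median shift, from 0.14 to -0.02 under CuO NPs and from 0.15 to -0.01 under bulk CuO.

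With 5 in place of 1 added before the log, CuSO4 leaf was lower than bulk CuO leaf for 2 genes and higher for 4, and CuO NPs leaf was lower than untreated for 4 and higher for 0. In root, 1 was lower and 1 higher under CuO NPs, 20 lower and 3 higher under bulk CuO, and 13 lower and 0 higher under CuSO4. In pollen, 0, 3 and 6 were higher under CuO NPs, bulk CuO and CuSO4. With 0.1 added, 12 were lower in CuSO4 than in bulk CuO leaf, and 4, 5 and 2 were lower in pollen under CuO NPs, bulk CuO and CuSO4. At a difference of 2.3 in root, 0 were lower and 0 higher under CuO NPs, 6 and 1 under bulk CuO, and 4 and 0 under CuSO4. At that size in pollen, 0, 0 and 3 were higher under CuO NPs, bulk CuO and CuSO4.

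A median shift gave 4 lower genes under CuO NPs in root and 1 under CuSO4 in pollen. Quantile normalization gave 2 lower under CuSO4 and 5 higher under bulk CuO in pollen. Without genes listed at 0 in either library, 0 were lower in pollen under CuO NPs and 0 under bulk CuO. With a gap of at least 1, the leaf order held for 10 genes in root and 0 in pollen, and the opposite order for 0 in root and 3 in pollen. In pollen 69 genes averaged 0.1 FPKM or more and 16 averaged 5 FPKM or more.

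In the limma comparison, 29 genes were higher in root and 20 in pollen after a median shift, where 23.1% and 32.4% of all genes were, and 34 and 19 after quantile normalization, where 29.3% and 26.9% were. With all 12 libraries in the fit, 58 were higher in root and 4 in pollen, where 70.4% and 12.7% of all genes were. That fit includes the leaf values that chose the genes, so its counts are no separate check. Leaving out each treatment in turn gave 66 to 68 genes higher in root and 9 or 10 in pollen, and the fit without the treatment block gave 67 and 9. Causes of these shifts were not tested. Root and pollen libraries were matched by treatment in that block. Between treatments no replicate pairs exist, since the labels carry no replicate numbers and each group has 1 library.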
